A study of Mus musculus with 6 samples.

Results

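F-box proteins choose the targets of SCF ubiquitin ligases, and the data describe the messenger RNAs of this family in mouse early 2-cell embryos. A member was any gene whose symbol starts with Fbxw, Fbxl or Fbxo and a number, with pseudogene symbols ending in -ps left out. The tables held 79 such genes among 55335 rows with an Ensembl ID: 24 Fbxw, 19 Fbxl and 36 Fbxo. Members were chosen by symbol and on no value of their own, but the family was selected on results of this same comparison between EtP and control, so its counts are a description and support nothing further. By the GENCODE M21 annotation 77 members are protein-coding. The exceptions are Fbxl12os, an antisense RNA beside Fbxl12 that codes for no F-box protein, and Fbxw23, annotated as a transcribed pseudogene.

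There were 2 groups with 3 libraries each. The EtP embryos had been in culture medium with 40 uM ethylparaben, a paraben preservative, from 4 h after fertilization, and most such embryos stopped at this stage according to the series. The control embryos came from the same stage, and the labels state no agent for them. Strain, embryos per library, hour of collection and separate cultures are not given, so the p-values measure the spread between libraries, which may be technical, and the groups may differ in age. In libraries of whole embryos, fewer cells of a type and less RNA per cell cannot be told apart.

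An SCF ligase joins the cullin Cul1, the linker Skp1 and a RING protein to an F-box protein. The F-box binds Skp1, and a second part of the protein holds the target: WD40 repeats in the Fbxw class, leucine-rich repeats in the Fbxl class and various other domains in the Fbxo class. Targets tagged with ubiquitin are in most cases broken down by the proteasome. In the egg and early embryo such breakdown takes part in the meiotic and mitotic cycles and in the removal of maternal proteins, and mouse eggs carry messenger RNAs of several F-box genes in store.

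Of the 24 Fbxw genes, 15 lie side by side on chromosome 9 between 109139447 and 109790670 (GRCm38, mm10), a span of 651 kb. All 15 are on the minus strand and no other protein-coding gene lies within the span, so they form a tandem array. The coding sequences of the 14 protein-coding copies were 79.03% to 99.1% identical in pairs (median 83.6%), against 30.8% to 54.0% between an array gene and an Fbxw gene elsewhere. Fbxw14 and Fbxw28 are the closest pair, at 99.1%, and they alone shared exact stretches of 150 bases with another copy, 28.4% of such stretches in Fbxw14 and 30.6% in Fbxw28. Reads of this pair can thus be split between them by the authors' counting, and 97.8% of the array's deposited counts were not whole numbers, against 24.2% for members outside it.

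The upstream sequences of the array are shown because its genes moved together. RefSeq promoter entries (GRCm38.p6) that start within 100 bases of the GENCODE start were used for 11 of the 15 genes, and the 250 bases before the start were 60.7% to 96.4% identical in pairs (median 83.9%). The lines give the 100 bases before the RefSeq start, 5′ to 3′ on the minus strand, with capitals for AAATCTTTGGC, the longest string that all 11 hold in the 150 bases before the start. The RefSeq start of Fbxw19 lies inside its GENCODE transcript.
Fbxw28 (chr9:109339660-109339759): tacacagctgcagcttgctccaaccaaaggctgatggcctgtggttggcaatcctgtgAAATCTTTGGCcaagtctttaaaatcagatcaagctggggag
Fbxw14 (chr9:109287677-109287776): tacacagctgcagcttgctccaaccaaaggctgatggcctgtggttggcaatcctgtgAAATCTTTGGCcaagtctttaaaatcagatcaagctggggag
Fbxw24 (chr9:109626060-109626159): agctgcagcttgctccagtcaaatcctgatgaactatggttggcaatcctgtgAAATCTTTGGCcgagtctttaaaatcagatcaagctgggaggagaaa
Fbxw19 (chr9:109495855-109495954): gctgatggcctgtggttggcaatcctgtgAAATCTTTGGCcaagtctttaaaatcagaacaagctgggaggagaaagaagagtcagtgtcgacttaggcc
Fbxw20 (chr9:109234755-109234854): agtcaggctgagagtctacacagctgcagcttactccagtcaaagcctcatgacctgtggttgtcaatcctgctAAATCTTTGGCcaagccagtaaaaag
Fbxw18 (chr9:109702701-109702800): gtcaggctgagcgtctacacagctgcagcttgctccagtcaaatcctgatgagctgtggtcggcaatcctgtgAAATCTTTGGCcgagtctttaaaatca

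Searched on both strands of the 250 upstream bases, AAATCTTTGGC occurred in 0.0487% of all 32851 promoter entries. These were 16 entries, 12 of them from the array and 4 from elsewhere. The string TTTAAAA, which does not overlap it, was found in 10 of the 11 array promoters, all but that of Fbxw20, and in 8.1% of all entries. These strings were picked after the sequences were seen, and the 11 promoters belong to related copies, so they are not 11 independent observations. CANNTG, the E-box, was in 11 of 11 and in 66.2% of all entries, while TATAAA was in 0 of 11 (12.4% of all) and TAATTG in 0 of 11 (7.17% of all). The upstream letters of Fbxw18 hold the same strings as those of Fbxw14, Fbxw24 and Fbxw28. Whether any of these strings has a part in the changes was not tested.

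Library totals ran from 11173295 to 14737152 estimated counts. Genes with at least 1 count numbered 25670 to 25811 in the control libraries but only 19077 to 19450 in the EtP libraries. What this difference adds to the scaling and to decreases at low levels was not tested. TMM factors, which scale libraries for RNA composition, lay between 1.197 and 1.387 for control libraries and between 0.737 and 0.833 for EtP libraries. Directions below are relative to this scaling. With library size alone the median gene moved by a further -0.73 on the log2 scale, and 93.2% of calls were decreases against 59.0% with TMM.

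After a filter on low counts 67 members were tested among 14142 genes. In EtP 18 were higher and 10 lower (quasi-likelihood test of edgeR, with p adjusted by Benjamini-Hochberg below 0.05), where 12.4% of all tested genes were higher and 17.9% lower. The classes split unevenly. Fbxw gave 13 higher and 2 lower of 23 tested, Fbxl 0 higher and 2 lower of 16, and Fbxo 5 higher and 6 lower of 28. Every called Fbxw increase lay in the chromosome 9 array, with 13 higher and 0 lower of 15, while the 52 tested members elsewhere gave 5 higher and 10 lower. The median log2 fold change was 1.62 for the array, -0.18 for members elsewhere and -0.18 for all tested genes. The array genes are related copies that can share reads, so they are not 15 independent observations. At an unadjusted p below 0.05, 0 Fbxl genes were higher and 0 array genes lower, and DESeq2 called 0 Fbxl genes higher.

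The counts of called members moved with the setting, as did those of all genes. Higher and lower members numbered 13 and 29 with library size alone (3.85% and 52.9% of all tested genes), 19 and 8 with RLE scaling (14.2% and 15.7%) and 18 and 11 with upper quartile scaling (11.2% and 19.8%). On the log2(TPM + 1) scale they numbered 16 and 22 (5.16% and 42.9%), and on the log2(TPM + 0.1) scale also 16 and 22 (5.04% and 42%). At an adjusted p of 0.01 by edgeR they numbered 14 and 4 (6.36% and 9.66%). DESeq2 gave 20 and 7 (15.9% and 16.3%), limma-voom 18 and 7 (12.5% and 16.9%), and the fit with a replicate block 21 and 11 (15.8% and 20.8%). With no filter there were 20 and 7 (6.14% and 9.88%), and the stricter filter of 10 CPM in 3 libraries left 16 and 3 (14% and 20.8%). Leaving out control replicate 1, 2 or 3 gave 23 and 11 (17.7% and 19.4%), 16 and 5 (8.67% and 12.8%), and 20 and 7 (13.3% and 18%). Leaving out EtP replicate 1, 2 or 3 gave 16 and 5 (7.08% and 10.6%), 17 and 4 (7.75% and 10.8%), and 16 and 4 (9.27% and 10.9%). Groups that did not overlap, with EtP above, were found for 20 of the 67 tested members by CPM (19% of all tested genes) and for 16 by TPM (6.7%). With EtP below, they were found for 16 by CPM (27.7%) and for 30 by TPM (50.4%).

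**Figure D1:**
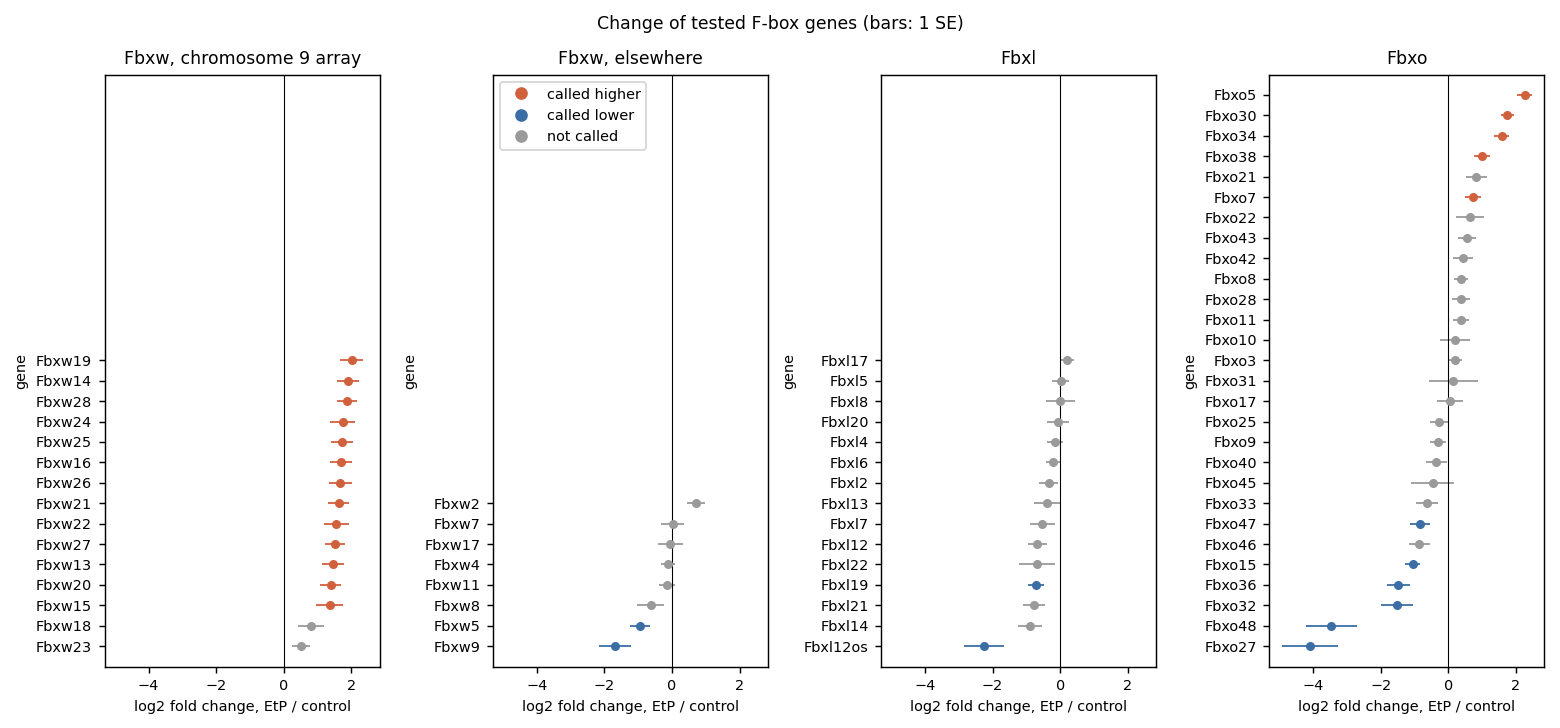
Log2 fold change of EtP against control for tested members, with bars of 1 SE, in 4 panels. The 15 array genes lie between 0.51 and 2.02, and the other panels spread to both sides of 0.

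The array dominated the family's RNA. Its summed TPM, a level scaled for transcript length and library, was 8958, 5571 and 4720 in control replicates 1, 2 and 3 and 14464, 12827 and 14626 in the EtP replicates. This was 75.1% ± 8.39 of the TPM of all 79 members in control and 87.8% ± 0.0857 in EtP (SD, n = 3). The EtP libraries were all above the controls, and the mean was 2.18-fold higher by TPM and 3.27-fold higher by TMM-scaled CPM, counts scaled to a common library size. Of a library's counts in rows with an Ensembl ID the array took 0.457% to 1.08% in control and 1.35% to 1.49% in EtP. The other 64 members summed to between 1661 and 2222 TPM in control and between 1796 and 2024 TPM in EtP, ranges that overlap. By TMM-scaled CPM their sums were 1759 to 2024 for the controls and 2792 to 2979 for EtP, without overlap.

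**Figure D2:**
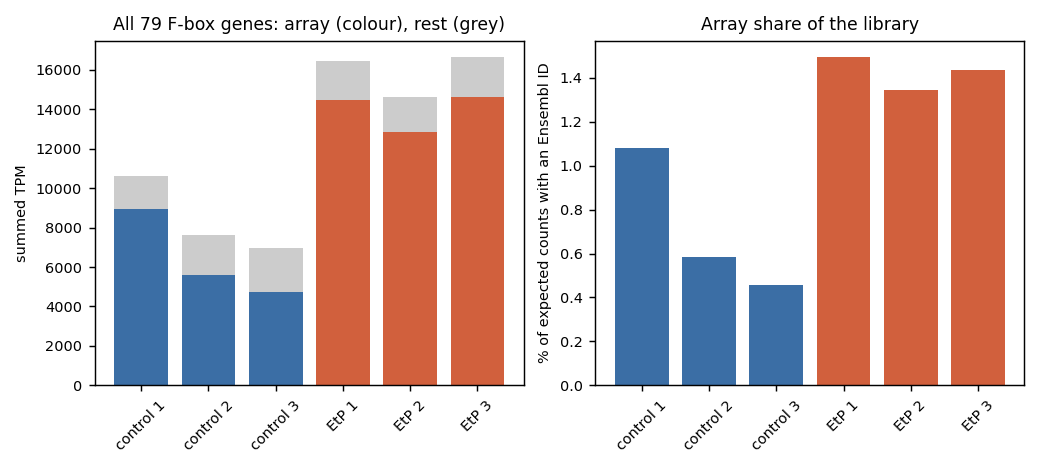
Left, summed TPM of all 79 members per library, with the array in colour and the rest in grey. Right, the array's percentage of the expected counts in rows with an Ensembl ID. Control replicate 1, at 1.08%, is the highest control and lies below the lowest EtP library, at 1.35%.

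The most abundant members in both groups were Fbxw24, Fbxw28 and Fbxw14. Fbxw24 (chromosome 9, 109601116 to 109626057) was at 2176, 1205 and 1055 TPM in the control libraries and 3627, 2914 and 3382 TPM in the EtP libraries. All EtP libraries were above all controls. Its TMM-scaled CPM averaged 1316 ± 786 over the controls and 4398 ± 639 over the EtP libraries (SD, n = 3), and the fitted log2 fold change was 1.74 ± 0.37 (SE; adjusted p = 0.00535 by edgeR).

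Fbxw28 (chromosome 9, 109322886 to 109339659) was at 1756, 1137 and 1092 TPM in control and 3289, 2959 and 3518 TPM in EtP, and its log2 fold change was 1.87 ± 0.31 (edgeR adjusted p = 0.00138). Its near copy Fbxw14 (chromosome 9, 109270790 to 109287676) was at 1430, 869 and 816 TPM in control and 2614, 2422 and 2775 TPM in EtP, with a fitted log2 change of 1.90 ± 0.32 (adjusted p = 0.00172 by edgeR). For neither gene did the groups overlap. Summed, which removes the split of reads between these 2 genes but not with other copies, the pair was at 2143 ± 1044 CPM in the controls and 7903 ± 492 CPM after EtP (SD, n = 3), 3.69-fold higher.

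Fbxw19 had the largest change in the array, from 290, 186 and 150 TPM in control to 572, 516 and 599 TPM in EtP, with a fitted log2 change of 2.02 ± 0.34 (adjusted p = 0.0016 by edgeR). Fbxw25, Fbxw16, Fbxw26, Fbxw21, Fbxw22, Fbxw27, Fbxw13, Fbxw20 and Fbxw15 rose too, by between 1.72 (Fbxw25) and 1.35 (Fbxw15) on the log2 scale. Fbxw15, a copy studied in mouse oocytes, was at 842, 575 and 313 TPM in control and 1123, 901 and 1009 TPM in EtP. Its highest control library was 3.86 times its lowest, the widest ratio among the 15 array genes. Its call was lost with library size alone and with the 10 CPM filter (edgeR adjusted p = 0.0687). It was also lost without control replicate 2 (edgeR adjusted p = 0.0846) or without EtP replicate 1, 2 or 3 (edgeR adjusted p = 0.0791, 0.0615 and 0.0511).

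Levels within the array were far apart. Mean TPM in control ranged from 19.4 for Fbxw13 to 1479 for Fbxw24, 76.4-fold, and in EtP from 35.0 to 3308. The abundant Fbxw24 and the pair Fbxw28 and Fbxw14 are separated by Fbxw15, Fbxw23, Fbxw19, Fbxw16 and Fbxw22. In that order, these had control means of 577, 147, 208, 166 and 362 TPM. A relation of level to position in the array was not tested. Fbxw24 made up 22.8% ± 1.38 of the array's TPM in control and 23.6% ± 1.26 in EtP (SD, n = 3).

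Fbxw18 and Fbxw23 were the array genes whose change was not called in the main fit (edgeR with TMM, the filter on low counts and no block). Fbxw18 was at 260, 137 and 98.6 TPM in control and 196, 189 and 201 TPM in EtP, so that control replicate 1 lay above every EtP library. Its log2 fold change was 0.80 ± 0.40 (edgeR adjusted p = 0.151). It was called higher with a replicate block (1.03; edgeR adjusted p = 0.00339), with no filter (0.86; edgeR adjusted p = 0.0101) and without control replicate 1 (1.60; edgeR adjusted p = 0.000118). The pseudogene Fbxw23 was at 178, 138 and 124 TPM in control and 131, 131 and 152 TPM in EtP, with a fitted log2 change of 0.51 ± 0.26 (adjusted p = 0.167 by edgeR) that turned to -0.20 with library size alone and to -0.07 on the log2(TPM + 1) scale. As a share of the array, Fbxw23 was 2.37% ± 0.341 in control and 0.989% ± 0.0708 in EtP, and Fbxw18 was 2.48% ± 0.407 and 1.40% ± 0.0623 (SD, n = 3).

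**Figure D3:**
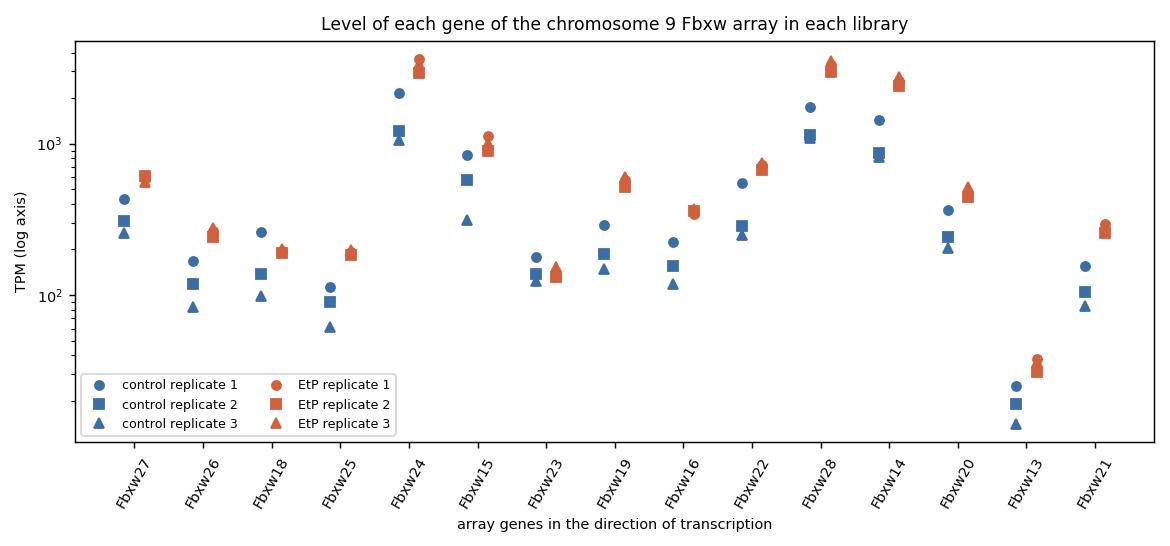
TPM of the 15 array genes on a log axis in each of the 6 libraries, ordered in the direction of transcription. For 13 genes the EtP points lie above all control points, and for Fbxw18 and Fbxw23 they overlap.

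The groups did not overlap by CPM for 13 of the 15 array genes, with EtP above in each (19% of all tested genes), nor by TPM for 13 (6.7% of all tested genes). The control libraries varied more than the EtP libraries. The highest control library was 1.99 to 3.86 times the lowest across array genes, against 1.06 to 1.31 times in EtP. Control replicate 1 was the highest control and control replicate 3 the lowest for 15 of 15 array genes, an order that 29.1% of all tested genes had and 12 of the 52 tested members outside the array. Without control replicate 1 the 15 array genes were all called higher, with log2 fold changes of 0.94 to 2.62. With library size alone 10 were higher, without Fbxw13, Fbxw15 and Fbxw20, their median being 0.92 where that of all genes was -0.91.

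Outside the array, the other 9 Fbxw genes summed to between 325 and 363 TPM in control and between 169 and 215 TPM in EtP, without overlap. By TMM-scaled CPM their sums overlapped, at 160 to 179 for the controls and 157 to 168 for EtP. Of the 8 that were tested 0 were called higher and 2 lower by edgeR. At an unadjusted p below 0.05 Fbxw2 was higher (0.72 ± 0.27; edgeR adjusted p = 0.0669). DESeq2 called 14 Fbxw genes higher, 13 of them in the array. Fbxw5, which in human cells targets the centriole protein SAS6, was at 9.58, 13.9 and 9.60 CPM in the controls and 4.01, 6.16 and 6.84 CPM after EtP. It fell by 0.96 ± 0.30 on the log2 scale (edgeR adjusted p = 0.0339), but the call was lost without control replicate 2 or without any of the EtP replicates. Fbxw9 was low, at 1.27 ± 0.395 CPM in the controls and 0.391 ± 0.0569 CPM after EtP (SD, n = 3; edgeR adjusted p = 0.0221).

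The Fbxw receptors with well-known targets showed no called change with TMM. With library size alone, where 52.9% of all tested genes were lower, Fbxw11 (-0.88; edgeR adjusted p = 0.0156) and Fbxw8 (-1.37; edgeR adjusted p = 0.0184) were called lower. Fbxw11 was also called lower on the log2(TPM + 1) scale (-0.88; limma adjusted p = 0.0151), where 42.9% of all tested genes were lower. Fbxw7, which recognises cyclin E and Myc, was at 1.94, 2.29 and 1.89 CPM in the controls and 1.76, 2.02 and 2.42 CPM after EtP, with a log2 fold change of 0.02 ± 0.34. Fbxw11, a partner of beta-catenin turnover and a close relative of Btrc, was at -0.15 ± 0.23, and Fbxw8, which works with the cullin Cul7, at -0.63 ± 0.40. Fbxw4, the most abundant Fbxw gene outside the array, was at 111 ± 12.4 CPM in the controls and 102 ± 10.1 CPM after EtP (SD, n = 3).

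Among Fbxo genes the largest increase was that of Fbxo5 (chromosome 10, 5799160 to 5805600). Fbxo5, also called Emi1, inhibits the anaphase-promoting complex (APC/C), a ubiquitin ligase that drives exit from mitosis. Its level was 81.2, 77.6 and 69.6 CPM in the controls and 430, 351 and 311 CPM after EtP, with no overlap between groups. The log2 fold change was 2.26 ± 0.22 (edgeR adjusted p = 4.88e-05). By TPM it was at 110 ± 18.7 in control and 340 ± 45.2 in EtP (SD, n = 3).

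Fbxo43, or Emi2, is the related inhibitor that holds the mouse egg at metaphase II until fertilization. It was at 72.5, 114 and 154 CPM in the controls and 182, 152 and 164 CPM after EtP, so control replicate 3 lay within the EtP range. Its log2 fold change was 0.55 ± 0.27 (edgeR adjusted p = 0.149). It turned to -0.21 with library size alone and was called higher, at 0.88, without control replicate 3 (edgeR adjusted p = 0.0193). By TPM the means were 143 ± 68.7 in control and 135 ± 26.3 in EtP (SD, n = 3). The difference between the changes of Fbxo5 and Fbxo43 was not tested.

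Fbxo30 (chromosome 10, 11281330 to 11298052), whose loss impairs meiosis in mouse oocytes, was at 70.5, 80.7 and 79.3 CPM in the controls and 266, 254 and 248 CPM after EtP. The replicates of each group lay close together and the groups did not overlap, with a fitted log2 change of 1.74 ± 0.19 (adjusted p = 0.000133 by edgeR). Fbxo34 (chromosome 14, 47450421 to 47531962) was at 113, 150 and 173 CPM in the controls and 479, 408 and 417 CPM after EtP, with a fitted log2 change of 1.58 ± 0.22 (adjusted p = 0.000561 by edgeR). Exons of Fbxo34 overlap those of Gm35166 on the other strand, from which these unstranded reads cannot be told apart. The same holds for Fbxo7 with A230060F14Rik, Fbxo11 with Msh6, Fbxo32 with Gm15943, Fbxl2 with Ubp1, Fbxl5 with Bst1 and Fbxl12 with Ubl5. It also holds for Fbxl12os with Gm26521 and Gm48069, Fbxw4 with Gm17018, Fbxw8 with Gm9754, Fbxw9 with A230103J11Rik, Fbxw15 with Gm42756 and Fbxw16 with Gm42494. Exons of Fbxl20 overlap those of Gm11632 on the same strand. Fbxo5, Fbxo30 and Fbxo34 were also the Fbxo genes called higher with library size alone and on the TPM scale.

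Fbxo38, a coactivator of the transcription factor Klf7, and Fbxo7, which binds the proteasome and takes part in mitophagy, had smaller increases. Fbxo38 was at 32.6, 44.3 and 52.1 CPM in the controls and 84.9, 74.3 and 98.7 CPM after EtP (log2 fold change 1.00 ± 0.24; edgeR adjusted p = 0.0103). Fbxo7 was at 12.2, 15.8 and 13.7 CPM in the controls and 23.4, 19.9 and 26.2 CPM after EtP (log2 fold change 0.73 ± 0.23; edgeR adjusted p = 0.0346). By TPM the groups overlapped for both, and with library size alone their log2 fold changes were 0.26 and 0.00. The call of Fbxo7 was also lost with the 10 CPM filter, without control replicate 2 or without any of the EtP replicates.

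Of the Fbxo decreases, Fbxo15, a gene known from mouse embryonic stem cells as a target of Oct4, had the smallest SE. It was at 32.8, 30.6 and 33.6 CPM in the controls and 14.9, 13.3 and 18.3 CPM after EtP, without overlap, and fell by 1.06 ± 0.22 on the log2 scale (edgeR adjusted p = 0.0055). Fbxo36 fell by 1.49 ± 0.34, from 15.2, 9.55 and 6.79 CPM in control to 4.30, 3.69 and 3.26 CPM in EtP (edgeR adjusted p = 0.00859). Fbxo47, needed in mouse meiotic prophase, was at 6.80 ± 1.20 CPM in the controls and 3.78 ± 0.643 CPM after EtP (SD, n = 3, edgeR adjusted p = 0.048). Its call was lost when any library except control replicate 3 was left out. It was also lost with RLE scaling, no filter, DESeq2 and limma-voom.

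The 3 other decreases were of genes near the limit of detection. Fbxo48 was at 2.79, 0.853 and 3.00 CPM in the controls and 0.293, 0 and 0.25 CPM after EtP (edgeR adjusted p = 0.00628). Fbxo32, a muscle atrophy gene also called atrogin-1, was at 1.96 ± 0.919 and 0.665 ± 0.0972 CPM (SD, n = 3; edgeR adjusted p = 0.0329). Fbxo27, of the glycoprotein-binding group, had 35 counts over the control libraries and 1 over the EtP libraries, 21.6-fold lower with a 95% exact binomial interval of 3.62 to 876 that covers counting error only.

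**Figure D4:**
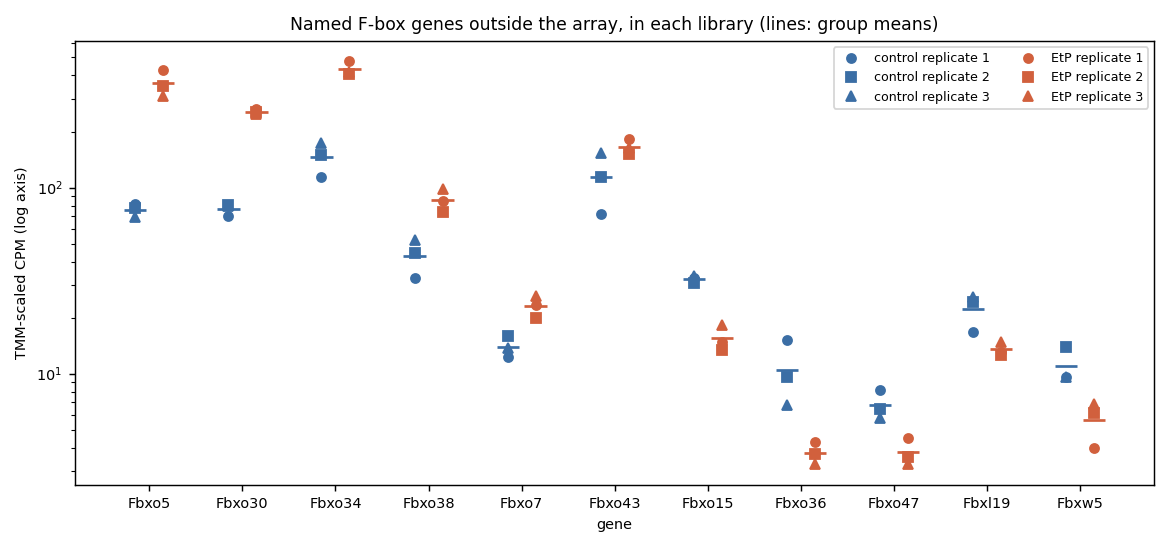
TMM-scaled CPM on a log axis of 11 named members outside the array in each of the 6 libraries, with lines at group means. Fbxo5, Fbxo30, Fbxo34, Fbxo38 and Fbxo7 are higher in every EtP library than in any control library, Fbxo43 overlaps, and the last 5 genes are lower in every EtP library.

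The most abundant Fbxo gene in control, Fbxo8, which carries a Sec7 domain, differed in direction between scalings. By TMM-scaled CPM it was at 495, 427 and 379 in control and 572, 545 and 570 in EtP, all EtP libraries above all controls. By TPM it was at 436, 413 and 402 in control and 266, 287 and 297 in EtP, all EtP libraries below all controls. The log2 fold change was 0.38 ± 0.20 (edgeR adjusted p = 0.173) with TMM and -0.35 with library size alone. It was called higher without control replicate 1 (0.58; edgeR adjusted p = 0.0164) and lower on the log2(TPM + 1) scale (-0.56; limma adjusted p = 0.0166). Fbxo11, which targets Bcl6, and Fbxo28 were at 0.37 ± 0.24 and 0.38 ± 0.28 with TMM and at -0.37 and -0.39 with library size alone, and were not called in either. Fbxo31, which targets cyclin D1 in human cells, was at 0.841 ± 0.728 CPM in the controls and 0.916 ± 0.243 CPM after EtP (SD, n = 3).

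No Fbxl gene was called higher. Fbxl19, a CpG-binding protein that in mouse embryonic stem cells acts at CpG islands, was at 16.7, 24.3 and 25.6 CPM in the controls and 13.1, 12.5 and 14.9 CPM after EtP. It fell by 0.72 ± 0.25 on the log2 scale (edgeR adjusted p = 0.0485), close to the threshold. The call was lost with DESeq2 (adjusted p = 0.061), RLE scaling, limma-voom and no filter. It was also lost when any library except control replicate 1 was left out. The other decrease was that of the antisense RNA Fbxl12os, at 1.87 ± 1.17 CPM in the controls and 0.381 ± 0.186 CPM after EtP (SD, n = 3; edgeR adjusted p = 0.0165).

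The iron sensor Fbxl5, the most abundant Fbxl gene in control, was at 84.8, 118 and 142 CPM in the controls and 106, 104 and 138 CPM after EtP, a log2 fold change of 0.01 ± 0.24. With library size alone Fbxl5 was called lower (-0.73; edgeR adjusted p = 0.044). Fbxl17, which clears wrongly paired BTB proteins, was at 57.2 ± 10.1 and 65.9 ± 3.83 CPM, and Fbxl20 at 61.8 ± 28.4 and 58.5 ± 7.69 CPM (SD, n = 3). On the log2 scale Fbxl21 was at -0.77 ± 0.33, Fbxl2 at -0.34 ± 0.27, Fbxl12 at -0.67 ± 0.28 and Fbxl14 at -0.90 ± 0.36, and none of these was called with TMM and all 6 libraries. Without control replicate 1 Fbxl12 (-0.70) and Fbxl14 (-0.98) were called lower (edgeR adjusted p = 0.0445 and 0.0366). With library size alone 13 of 16 Fbxl genes were called lower (52.9% of all tested genes).

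The 12 members that were not tested had at most 1.17 CPM in any library. They were Fbxl15, Fbxl16, Fbxl18, Fbxo2, Fbxo4, Fbxo6, Fbxo16, Fbxo24, Fbxo39, Fbxo41, Fbxo44 and Fbxw10. Fbxo4 had 10 counts over the control libraries and 3 over the EtP libraries. Fbxo2, a brain-enriched receptor for glycoproteins, had no count in any library.

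The partners of F-box proteins were measured as well. Their counts, and those of the marker lists, stand beside the 12.4% of all tested genes that were higher and the 17.9% that were lower. Genes outside the family were not followed across settings, so their fold changes are those of the main fit. Of 16 tested SCF core and E2 genes 5 were higher and 1 lower, with a median log2 fold change of 0.27. The linker Skp1a was at 1135 ± 425 CPM in the controls and 2689 ± 447 CPM after EtP (SD, n = 3; edgeR adjusted p = 0.00818) and the scaffold Cul1 at 1538 ± 167 and 2707 ± 193 CPM (edgeR adjusted p = 0.0108). Glmn, which blocks the RING subunit, rose by 1.45 ± 0.29, while the E2 enzyme Ube2d1 fell by 1.14 ± 0.28 (edgeR adjusted p = 0.0045 and 0.0109). By TPM the groups overlapped for Cul1, at 1750 ± 177 and 1725 ± 112 (SD, n = 3).

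Genes that switch cullins on and off by the modifier Nedd8 gave 2 higher and 4 lower of 21, with a median of -0.30. Cops8, a subunit of the COP9 signalosome, rose from 210 ± 17.4 to 808 ± 89.6 CPM and Dcun1d2 from 10.02 ± 0.987 to 34.1 ± 1.74 CPM (edgeR adjusted p = 8.49e-05 and 0.000269), while Cops4 fell by 0.71 ± 0.19 and Cops7b by 0.79 ± 0.22 (edgeR adjusted p = 0.0176 and 0.0212). F-box genes under other symbols gave 1 higher and 1 lower of 7, namely Lmo7 (1.18 ± 0.23; edgeR adjusted p = 0.00373) and Skp2 (-0.98 ± 0.33; edgeR adjusted p = 0.0479), the receptor for the cell cycle inhibitor p27. Btrc, the receptor for beta-catenin, was at 61.3 ± 17.4 and 84.6 ± 11.4 CPM and was not called.

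APC/C subunits and cofactors, the complex that Fbxo5 and Fbxo43 inhibit, gave 2 higher and 4 lower of 18, with a median of -0.11. Anapc7 and Anapc4 rose by 1.23 ± 0.20 and 1.01 ± 0.21, while Anapc11 fell by 1.32 ± 0.29 and the E2 enzyme Ube2c by 1.47 ± 0.30 (edgeR adjusted p = 0.00148, 0.00491, 0.00713 and 0.00449).

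Marker lists were read beside the array. Of 17 tested oocyte markers, RNAs that eggs store, 10 were higher by edgeR, with summed levels of 19011 to 22593 TPM in control and 28933 to 30398 TPM in EtP. Control replicate 1 was the highest of the controls in this sum as well, at 22593 TPM. Of 12 tested markers of 2-cell transcription 12 were lower, with sums of 785 to 920 TPM in control and 24.8 to 30.6 TPM in EtP. Cumulus markers summed to 48.3 to 54.5 TPM in control and 24.4 to 33.6 TPM in EtP, and their CPM sums overlapped, at 50.3 to 84.1 and 50.2 to 56.9, with Ptx3 and Amh at 0 in every library. Of the 6 cumulus markers that were tested, 0 were higher and 3 lower by edgeR, with a median log2 fold change of -0.98. Sperm markers summed to 76.8 to 120 TPM in control and 48.0 to 66.0 TPM in EtP, while their CPM sums overlapped, at 62.9 to 135 and 109 to 137, with Tnp1, Smcp and Spem1 at 0 in every library. Of the 3 sperm markers that were tested, 0 were higher and 1 lower by edgeR. The part of these differences in the array's values was not tested.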

How the data were processed

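Polyadenylated RNA of whole embryos was amplified by Smart-seq2 and sequenced in 6 libraries, per the labels' protocols; the protocol marks no strand. The submitters' processing notes name cutadapt 1.16, STAR and the build mm10. For read counting the program is not given in the sources used here, nor is the STAR version. The authors deposited for each gene an expected count, a TPM and an FPKM, per the file headers. FPKM was not used. Rows without an Ensembl ID, 0.648% to 1.373% of counts, were left out.

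Expected counts were rounded and all genes tested with edgeR 4.0.16 (TMM, filterByExpr, robust quasi-likelihood; R 4.3.3), with Benjamini-Hochberg adjustment over all genes tested and a threshold of 0.05. SE is the log2 fold change divided by the root of F. Alternatives used other scalings and filters, DESeq2 1.42.0, limma 3.58.1 on log2(TPM + 1) or log2(TPM + 0.1) with at least 1 TPM in 3 libraries, limma-voom, a replicate block and leaving out each library. The edgeR steps were tested on simulated data. Totals of 11173295 to 14737152 counts per library limit precision mainly for genes below about 1 CPM.

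The members and lists were chosen with earlier results of these data known. Named in each class were up to 6 called increases and 6 decreases of largest size with a mean of at least 5 CPM, the 3 members of highest TPM, and members of known role, and in other lists up to 4 genes of smallest p. Called members under 5 CPM were named after their values were seen. Lists were SCF core, Nedd8 and COP9 genes, F-box genes under other symbols, known SCF substrates, APC/C, CUL3 adaptors, and oocyte, 2-cell, cumulus and sperm markers. No pair of replicates was within sampling noise. Members not named enter the counts, sums and plots, and 1 result for a named member is not reported here.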

Additional observations from a re-analysis of the deposited data

How the results depend on the processing

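The 13 increases of the chromosome 9 array ranged from 12 to 15 when a library was left out. Of the 23 called members with a mean of at least 5 CPM, 14 kept their call in every setting that tested them. Among these, Fbxo36 was not tested with the 10 CPM filter. The called members under 5 CPM (Fbxw9, Fbxl12os, Fbxo27, Fbxo32 and Fbxo48) were not followed gene by gene across settings. Decreases depended on scaling, on the filter and on the threshold. The 10 CPM filter left Fbxo36, Fbxo47 and the called members under 5 CPM untested, while Fbxl19 and Fbxo15 stayed lower with it. Against 10 lower members (4 to 11 with a library left out), all of them outside the array (4 to 11), there were 29 with library size alone, 3 at 10 CPM or more in 3 libraries, 22 with either TPM pseudocount and 4 at an adjusted p of 0.01. Lower Fbxw genes (2; 0 to 2) were 5 with library size alone and with either TPM pseudocount, 1 with no filter, the 10 CPM filter or DESeq2, and 0 at 0.01. Lower Fbxl genes (2; 0 to 3) were 13 with library size alone, 8 with either TPM pseudocount, 1 with RLE scaling, no filter, the 10 CPM filter, DESeq2 or limma-voom, and 0 at 0.01. Lower Fbxo genes (6; 4 to 6) were 11 with library size alone and 1 with the 10 CPM filter. Higher Fbxo genes (5; 4 to 7) and higher members outside the array (5; 4 to 8) were both 3 with library size alone, either TPM pseudocount and 0.01. With a library left out, higher members in all (18) ranged from 16 to 23, higher Fbxw genes (13) from 12 to 16 and higher Fbxl genes from 0 to 0. With library size alone there were 13 higher members, 10 of them Fbxw genes, and at 0.01 there were 14, of which 11 were Fbxw genes. The median log2 fold change of 0.02 (0.022 to 0.24) was 0.11 with RLE scaling and DESeq2, -0.70 with library size alone, 0.28 with the 10 CPM filter, and -0.41 and -0.54 with a TPM pseudocount of 1 and 0.1. Apart from the members that the 10 CPM filter left untested, the cause of these differences was not tested.

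Among the members followed gene by gene, signs turned only for those that were not called in the main fit. Some turned values were themselves called lower. These include Fbxl5 with library size alone (edgeR adjusted p = 0.044) and Fbxo8 on the log2(TPM + 1) scale (limma adjusted p = 0.0166). With library size alone the log2 fold change was -0.51 for Fbxl17, -0.73 for Fbxl5, -0.37 for Fbxo11, -0.39 for Fbxo28, -0.61 for Fbxo31, -0.21 for Fbxo43, -0.35 for Fbxo8, -0.20 for Fbxw23 and -0.70 for Fbxw7. With a TPM pseudocount of 1 and 0.1 it was -0.42 and -0.43 for Fbxl17, -0.67 and -0.68 for Fbxl5, -0.31 and -0.32 for Fbxo11, -0.18 and -0.18 for Fbxo28, -0.56 and -0.56 for Fbxo8, and -0.074 and -0.074 for Fbxw23. With the 10 CPM filter it was -0.042 for Fbxl17 and -0.24 for Fbxl5, and with upper quartile scaling -0.049 for Fbxl5 and -0.047 for Fbxw7. Fbxl20 was at 0.025 with RLE scaling and DESeq2 and at 0.036 with limma-voom. With 1 library left out, the range was -0.42 to 0.0099 for Fbxl2, -0.29 to 0.33 for Fbxl20, -0.094 to 0.24 for Fbxl5, -0.31 to 0.86 for Fbxo31, -0.16 to 0.018 for Fbxw11 and -0.078 to 0.18 for Fbxw7.

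The deviations of same-numbered replicates from their group means had correlations of 0.183, -0.002 and 0.357, against at most 0.147, 0.008 and -0.171 with another number. As 1 of the 3 was below 0.1, the numbers were not taken to pair the libraries; whether same-numbered libraries share a culture or batch is not given. With the replicate block 21 members were higher and 11 lower (Fbxw 15 and 2, Fbxl 0 and 2, Fbxo 6 and 7), Fbxw18 was called higher, at 1.03, and Fbxl20 was at 0.023.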

Other observations

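Reported substrates of SCF ligases gave 6 higher and 5 lower of 28 tested, with a median log2 fold change of -0.12. These counts, and those of the CUL3 adaptors below, stand beside the 12.4% of all tested genes that were higher and the 17.9% that were lower. Cpeb1, an RNA-binding protein of the oocyte, had a log2 fold change of 2.29 and Cdc6, a replication licensing factor, of 1.21 (edgeR adjusted p = 6.63e-05 and 0.00335). Nusap1, a spindle protein, was at 1.71 and the telomere protein Terf1 at 1.46 (edgeR adjusted p = 0.00319 and 0.00267). The 5 decreases were of genes with a mean below 5 CPM, and those given here were chosen after their values were seen. Ccne1, or cyclin E1, was at -1.76, Mcl1 at -1.90 and Snai1 at -1.33 (edgeR adjusted p = 0.0033, 0.0116 and 0.0176). Myc had 54 counts over the control libraries and 0 over the EtP libraries. Adaptors of the related CUL3 ligases gave 4 higher and 2 lower of 29, with a median of 0.08. Kctd5 was at 1.62 and Klhl18 at 1.46 (edgeR adjusted p = 0.00288 and 0.00681). The decreases, both below 5 CPM, were of Klhl11 (-2.15) and Klhl7 (-2.36; edgeR adjusted p = 0.00915 and 0.0141).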
